A study of Mus musculus with 8 samples.

Results

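The AP-2 transcription factors of the mouse are encoded by 5 genes, Tfap2a, Tfap2b, Tfap2c, Tfap2d and Tfap2e, and the accessible chromatin around them is described here in lens epithelium and lens fibers. Each gene was taken by name with its RefSeq gene body on GRCm38 and 50 kb on each side, and all peaks of 4 deposited ATAC-seq peak lists that overlap such a window by at least 1 bp were collected. In ATAC-seq, a transposase cuts accessible DNA, so that sequenced ends pile up where chromatin is open. The strain was CD1, and the 4 groups were the epithelium and the fibers of the lens at embryonic stage E14.5 and postnatal stage P0.5 (days after conception and after birth), with 2 libraries in each group and 8 in all. No mutation, transgene or treatment is named for any group, and the tissues were separated by microdissection, with several lenses pooled in a library. The 2 libraries of a group had been pooled before peaks were called, so the values below have no spread between replicates and no test across replicates, and every difference between groups is a difference between 4 pooled lists. The 5 genes are among 21774 protein-coding genes, and their windows held 55 of 100003 peaks in epithelium and 41 of 123743 in fibers at E14.5, and 29 of 58592 in epithelium and 28 of 62995 in fibers at P0.5. Peaks of the 4 lists that lay within 10 bp of each other were merged, which gave 67 regions in the windows of 185271 in the genome.

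AP-2 proteins bind DNA as dimers at GC-rich sites with the palindromic core GCCNNNGGC, and they regulate genes of ectoderm, neural crest and epithelia. In the eye, AP-2α (Tfap2a) is known from the surface ectoderm, the lens vesicle and the lens epithelium, where its loss disturbs separation of the lens vesicle, and AP-2β (Tfap2b) is known from the same ectoderm and from the periocular neural crest. Tfap2c is best known from trophoblast and mammary epithelium, Tfap2d from the developing brain and retina, and Tfap2e from the olfactory system.

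Peaks were placed by fold enrichment at the summit, ranked within their own list and given as a percent of that list, so that a small percent is near the top. The merged regions of a gene are numbered along its direction of transcription. The following sequences are each 200 bases of GRCm38 around the summit of a region, 5′ to 3′ in the sense of the gene. They show, for Tfap2d and Tfap2e, the highest-ranked region over the gene or its promoters whose 200 bases hold at most 30 exonic bases, and the Tfap2a region called in all 4 lists with the largest ratio of fold enrichment between epithelium and fibers at each stage. Capitals mark matches on either strand to the AP-2 core GCCNNNGGC, the Maf core TGCTGA, the Sox core ACAANG, the Tead core GGAATG and the AP-1 core TGANTCA.
Tfap2a region 19, downstream of the gene, minus strand, chr13:40709090-40709289: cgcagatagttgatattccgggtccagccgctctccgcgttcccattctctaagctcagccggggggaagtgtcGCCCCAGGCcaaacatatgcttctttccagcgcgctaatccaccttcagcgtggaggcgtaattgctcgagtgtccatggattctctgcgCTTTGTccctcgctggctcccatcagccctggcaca
Tfap2d region 2, an intron, plus strand, chr1:19109740-19109939: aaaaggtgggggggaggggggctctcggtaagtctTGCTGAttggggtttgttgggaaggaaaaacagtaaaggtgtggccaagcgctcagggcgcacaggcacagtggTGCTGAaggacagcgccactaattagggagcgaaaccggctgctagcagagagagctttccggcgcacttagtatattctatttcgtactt
Tfap2e region 11, an intron, minus strand, chr4:126734670-126734869: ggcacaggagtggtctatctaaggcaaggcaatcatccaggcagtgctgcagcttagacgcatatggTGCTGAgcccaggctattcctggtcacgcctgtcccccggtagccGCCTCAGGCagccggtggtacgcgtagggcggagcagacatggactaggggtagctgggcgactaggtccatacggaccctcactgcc
In Tfap2a region 19, the AP-2 core GCCCCAGGC started at position 75, counted from the first base shown, and a Sox match at position 165. The Tfap2e intron held an AP-2 core at position 113 and a Maf match at position 68, and the Tfap2d intron held 2 Maf matches. These matches are letters in the genome and do not show that a factor was bound.

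The number of sequenced fragments (read pairs) behind each peak was inferred from the lists. In every list, 100% of the fold enrichment values were whole multiples of 1 step, within 0.001 of a step, and each fold enrichment went with 1 p value. MACS2 adds 1 to the pileup and to the background before it divides, so a step was read as 1 fragment in the pooled pileup at the summit over a single background per list. This reading was not checked against read counts of the libraries, and every fragment count and counting interval below rests on it. The median peak had 14 fragments at its summit in epithelium and 15 in fibers at E14.5, and 13 in epithelium and 8 in fibers at P0.5, and the weakest peaks had 7, 8, 7 and 6. Of the peaks in AP-2 windows, 31 of 55, 13 of 41, 20 of 29 and 10 of 28, in the same order of groups, had no more fragments than the median peak of their list. Intervals given below for fragments and folds are exact Poisson intervals at 95%, which cover counting error in the pooled fragments only and not the spread between animals or libraries. Fewer cells with an open site and less opening per cell cannot be told apart in these tissues.

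Of the 5 genes, Tfap2a had the most peaks in its window in all 4 groups and the highest-ranked ones over its body or promoters, and Tfap2b and Tfap2d had the fewest in 3 of the 4 groups, Tfap2e having as few as Tfap2b in P0.5 epithelium. The Tfap2a window held 25 peaks in epithelium and 21 in fibers at E14.5, and 16 in epithelium and 13 in fibers at P0.5. That is 20.1, 16.9, 12.9 and 10.4 peaks per 100 kb, against medians of 5.44, 6.82, 3.46 and 3.41 over the windows of all protein-coding genes. Counts in the other windows were 12, 6, 7 and 7 peaks for Tfap2c, 12, 7, 3 and 7 for Tfap2e, 6, 5, 3 and 1 for Tfap2b and 3, 5, 1 and 1 for Tfap2d, in the same order of groups. Tfap2b and Tfap2d are neighbours on chromosome 1, and 65041 bp are common to their windows. Their shared peaks, 3, 3, 1 and 1, are counted for both genes and once in the totals. The E14.5 lists are longer than the P0.5 lists, and with the same number of strongest peaks taken from each list the windows held 31, 27, 29 and 26 peaks in the order above.

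**Figure D1:**
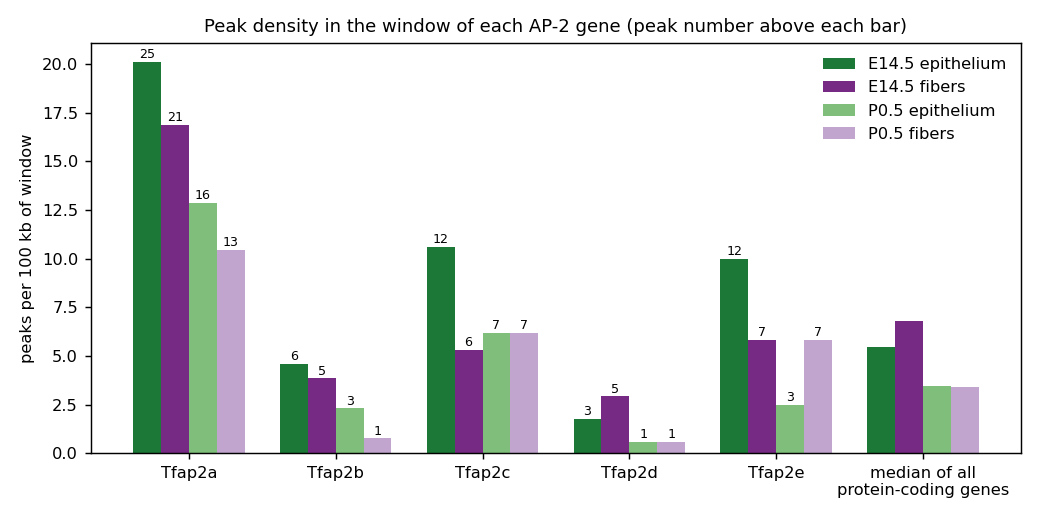
Bars give the number of peaks per 100 kb in the window of each AP-2 gene (gene body plus 50 kb each side) in the 4 pooled lists, with the number of peaks above each bar, and the last set of bars gives the median over all protein-coding genes. Tfap2a is above the median in all 4 lists, from 20.1 in E14.5 epithelium to 10.4 in P0.5 fibers, and Tfap2b and Tfap2d are below it in all 4.

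A promoter peak, one that overlaps 2 kb on either side of a curated start site, was called at 4 of the 5 genes in epithelium and 5 in fibers at E14.5, and 3 in epithelium and 4 in fibers at P0.5. Over 21000 protein-coding genes the share was 70.3% in epithelium and 71.2% in fibers at E14.5, and 67.0% in epithelium and 64.6% in fibers at P0.5. No difference from these shares is read from 5 genes. Tfap2a, Tfap2b and Tfap2c had a promoter peak in every list. That of Tfap2b in P0.5 fibers was weak, and 3 of the 5 genes had a promoter peak in that list at a q value under 0.001 or with promoters of 1 kb each side. Tfap2e lacked one in P0.5 epithelium, and Tfap2d had one in E14.5 fibers and in no other list. With lists of equal length, 4 of the 5 genes had one in E14.5 fibers. The top peak over the body or promoter of Tfap2a stood at 3.77% of the list in epithelium and 2.23% in fibers at E14.5, and 11.8% in epithelium and 2.35% in fibers at P0.5. In the shorter P0.5 fiber list at a q value under 0.001 it stood at 4.80%. Of all protein-coding genes, 19.4%, 14.9%, 31.6% and 7.43% had a peak ranked higher than that of Tfap2a. The other 4 genes were all farther from the top than the median gene with such a peak, which stood at 7.91%, 6.29%, 13.3% and 11.4%. The order of the genes by this measure was Tfap2a, Tfap2c, Tfap2e, Tfap2b in E14.5 epithelium, and Tfap2a, Tfap2c, Tfap2b, Tfap2e, Tfap2d in E14.5 fibers. It was Tfap2a, Tfap2c, Tfap2b in epithelium at P0.5 and Tfap2a, Tfap2e, Tfap2c, Tfap2b in P0.5 fibers. Below Tfap2a, neighbours in this order had overlapping counting intervals in all 4 lists. Tfap2a and Tfap2c overlapped in P0.5 epithelium, with 39 (27.7 to 53.3) and 25 (16.2 to 36.9) fragments, and Tfap2a was apart from the next gene in the other 3 lists. In P0.5 fibers the best peaks of Tfap2e, Tfap2c and Tfap2b had 10 (4.80 to 18.4), 9 (4.12 to 17.1) and 7 (2.81 to 14.4) fragments.

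**Figure D2:**
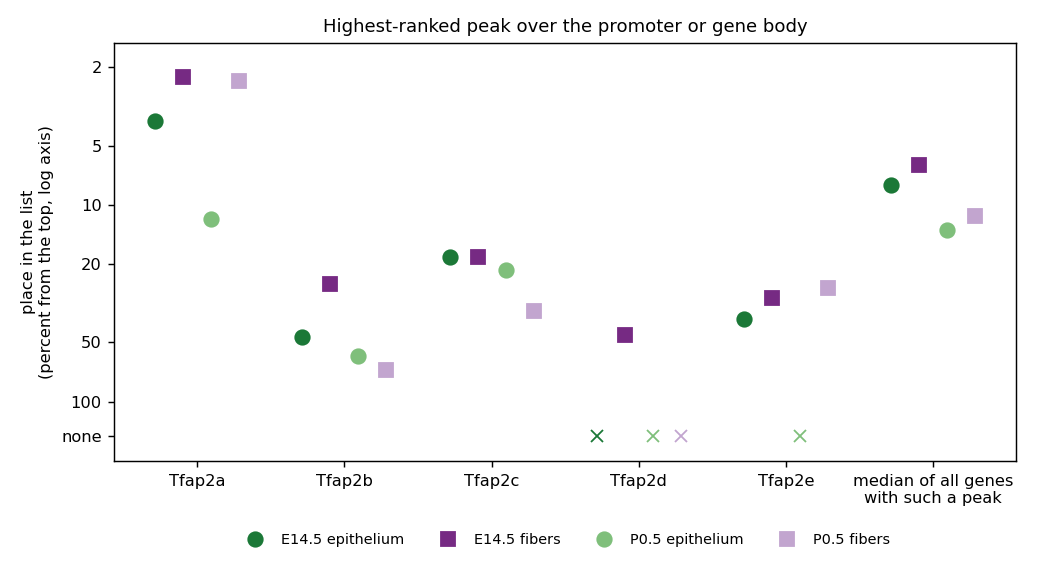
Points give the place in the list, in percent from the top on a log axis, of the top peak that overlaps the promoter or body of each AP-2 gene, with the median of all protein-coding genes at the right and crosses where no such peak was called. Tfap2a stands nearest the top in all 4 lists, and in every list where they have such a peak the other 4 genes stand farther from the top than the median gene.

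Tfap2a lies on the minus strand of chromosome 13 (chr13:40713802-40738238, 24.4 kb) and has 3 curated start sites. Its body was covered by peaks over 29.3% of its length in epithelium and 43.1% in fibers at E14.5, and 16.1% in epithelium and 16.7% in fibers at P0.5. The median protein-coding gene was covered over 2.27%, 3.52%, 1.26% and 1.11%, and between 93.7% and 94.9% of genes had a lower share than Tfap2a. The strongest region was not at a curated start site of Tfap2a but in an intron, Tfap2a region 10, within which GENCODE also annotates the start of an antisense transcript. Its fold enrichment was 51.8 in E14.5 epithelium, from 134 fragments (112 to 159), and 72.4 in E14.5 fibers, from 243 fragments (213 to 276). In P0.5 epithelium it was 17.0, from 39 fragments (27.7 to 53.3), and in P0.5 fibers 15.3, from 32 fragments (21.9 to 45.2). At P0.5 its lead over other Tfap2a regions was not clear. Its fragment interval overlapped those of regions 7 and 19 in epithelium (14.6 to 34.5 and 25.2 to 49.8) and of region 7 in fibers (7.65 to 23.5). Between the tissues, the counting intervals of the region 10 fold were apart at E14.5, with fibers higher (43.4 to 61.2 in epithelium against 63.6 to 82.0), and overlapped at P0.5 (12.2 to 23.1 against 10.6 to 21.4). At E14.5 the ratio of the epithelium fold to the fiber fold of region 10 was 0.715, and 25.1% of the regions called in all 4 lists had a lower one. Its summit was at the same base in both E14.5 lists, and in P0.5 epithelium it lay in the exon next to it.

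The promoter region of Tfap2a, region 7 (chr13:40730574-40734836), holds the curated start site at 40733795 and lies between the other two. It was a single peak of 4263 bp in E14.5 fibers and was split into 4 peaks in epithelium of that stage, and into 2 in epithelium and 6 in fibers at P0.5. Its best peaks had summits at 4 different bases, at 40730840 in epithelium and 40731478 in fibers at E14.5, and at 40734077 in epithelium and 40731451 in fibers at P0.5, so values of the region are not values of 1 site. The best fold enrichment was 34.1 in epithelium and 32.3 in fibers at E14.5, whose counting intervals, 27.4 to 42.0 and 26.6 to 39.0, overlapped. At P0.5 it was 10.2 (6.61 to 15.1) in epithelium and 6.95 (4.01 to 11.3) in fibers, which also overlapped. Among the regions called in all 4 lists, the median of the E14.5 fold over the P0.5 fold was 1.89 in epithelium and 3.97 in fibers. The same ratios were 3.05 and 4.73 at region 10, and 90.0% and 62.0% of these regions had lower ones. No such ratio is given for region 7, since its best peaks in epithelium had summits near different start sites at the 2 stages.

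**Figure D3:**
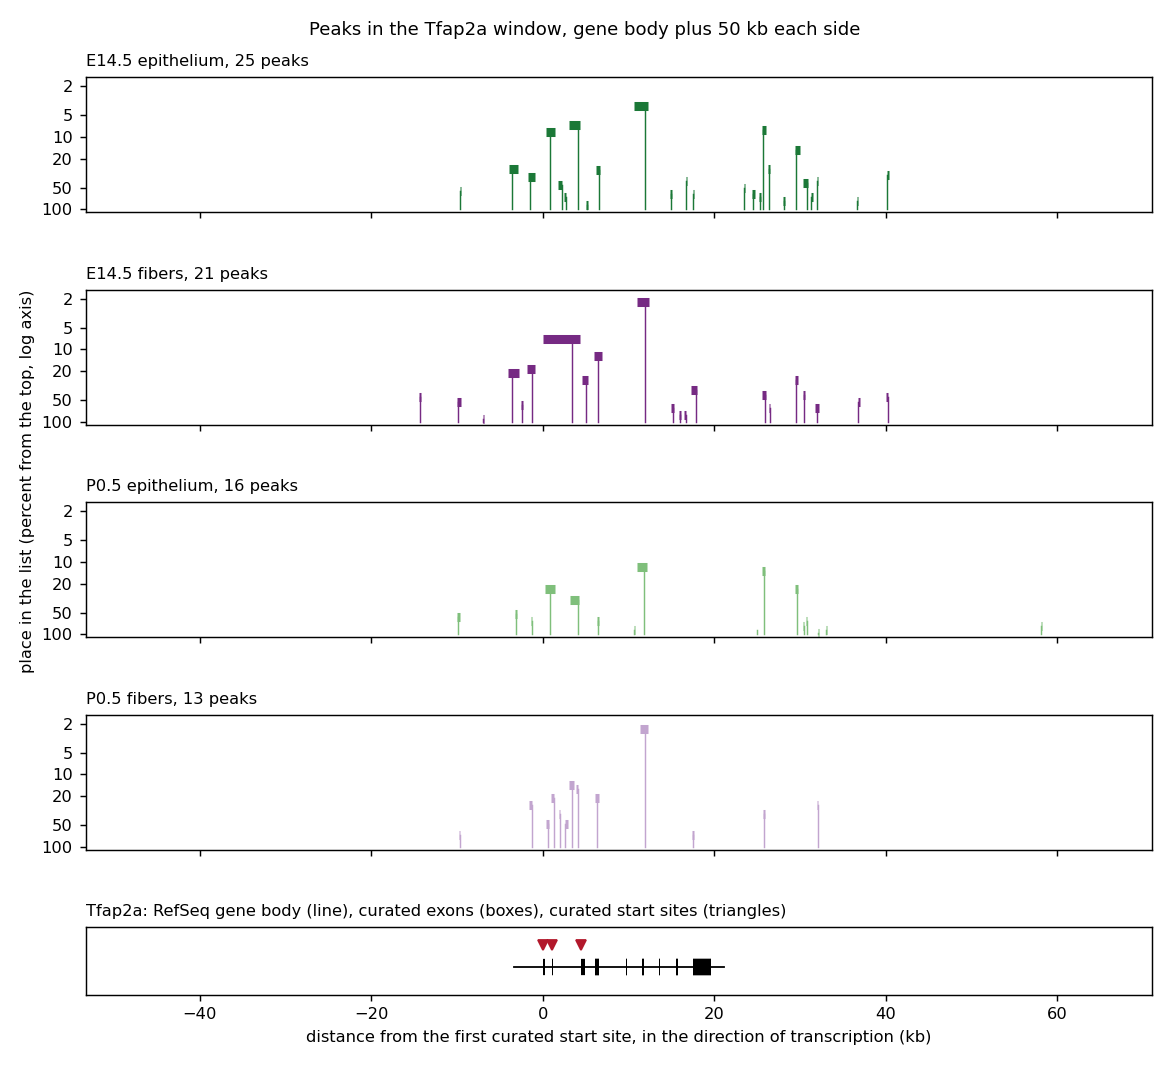
Peaks of the 4 lists in the Tfap2a window, drawn by distance in kb from the first curated start site in the direction of transcription, with place in the list in percent from the top on a log axis. Thick bars span the peaks and thin lines stand at the summits. The intronic peak of region 10 is the highest in all 4 panels, and the peaks past the end of the gene, to the right, are most numerous in E14.5 epithelium.

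Around the start sites and over the rest of the body, regions 1 to 6, 8 and 11 to 14 stood at 18.5% or farther from the top in each list. Region 6, in the part of the gene given by predicted transcripts, had 18, 38, 10 and 10 fragments in the order epithelium and fibers at E14.5, then at P0.5, and region 2, upstream of the gene, had 12, 14, 11 and 7, both in all 4 lists. Regions 1, 3, 5 and 12 were called in E14.5 fibers and in no other list, at 45.8% to 90.1% of it.

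Downstream of Tfap2a, 15 regions were called, numbered 15 to 29. Epithelium had 12 of them at E14.5 and 7 at P0.5, and fibers had 7 and 2. Of all 185271 merged regions, epithelium had 91470 (49.4%) at E14.5 and 51831 (28.0%) at P0.5, and fibers had 122504 (66.1%) and 55639. Region 19 (chr13:40708917-40709318), 6112 bp past the last curated base of the gene, was higher in epithelium at both stages. Its fold enrichment was 30.3 in epithelium (78 fragments, 61.7 to 97.3) and 5.34 in fibers (17 fragments, 9.90 to 27.2) at E14.5. At P0.5 it was 15.7 in epithelium (36 fragments, 25.2 to 49.8) and 4.63 in fibers (9 fragments, 4.12 to 17.1). The counting intervals of the fold were apart at E14.5 (24.0 to 37.7 against 3.23 to 8.37) and at P0.5 (11.1 to 21.6 against 2.37 to 8.38). In the lists it stood at 8.02% and 13.3% in epithelium and at 42.8% and 34.7% in fibers, E14.5 first. Its summits lay at 40709190 in epithelium and 40709013 in fibers at E14.5, and at 40709138 and 40709094 at P0.5. The ratios that follow thus compare different bases within the region. The ratio of the epithelium fold to the fiber fold was 5.67 at E14.5, against a median of 0.871 over the 20112 regions called in all 4 lists, and 0 of those regions had a higher ratio. Of the 61347 regions called in both E14.5 lists, 13 had a higher ratio. At P0.5 the ratio was 3.39, against a median of 1.74, and 5.21% of the 20112 regions had a higher ratio. Region 19 was singled out for these values, so they are a description of it and not a test.

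Among the other regions of the downstream group, region 22 had 41 fragments (29.4 to 55.6) at its summit in epithelium and 27 (17.8 to 39.3) in fibers at E14.5 and 23 (14.6 to 34.5) in epithelium at P0.5, and it was not called in P0.5 fibers. Region 20 had a fold enrichment of 9.20 (5.97 to 13.6) in epithelium and 3.86 (2.14 to 6.51) in fibers at E14.5, whose intervals overlapped, and was called in neither P0.5 list. Regions 15, 16, 18, 21 and 24 were called in E14.5 epithelium and in no other list, at 50.8% to 77.7% of that list, and regions 17, 26 and 29 were called in P0.5 epithelium and in no other list, at 75.7% to 86.7% of it.

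Of the 13 window regions called in all 4 lists, 7 were at Tfap2a. By place in the list, region 19 was the 1 region of the 13 that stood at least 2 times nearer the top in epithelium at both stages, which 1.83% of all regions in 4 lists did. Another 1 of the 13, Tfap2a region 9 (chr13:40728006-40728901), stood at least 2 times nearer the top in fibers at both stages, which 5.71% did. Region 9 overlaps an exon of Tfap2a and the promoter of the antisense transcript Gm26688, and it stood at 29.0% in epithelium and 12.5% in fibers at E14.5, and 66.3% in epithelium and 21.4% in fibers at P0.5. Its P0.5 places rest on 10 fragments in epithelium and 11 in fibers. By fold enrichment, at least 2 times higher at both stages, region 19 alone of the 13 was higher in epithelium, which 1.74% of all were, and 0 of the 13 were higher in fibers, which 0.104% of all were. With counting intervals apart at both stages, region 19 was again the 1 higher in epithelium, which 2.66% of all were, and 0 were higher in fibers, which 0.0994% of all were.

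**Figure D4:**
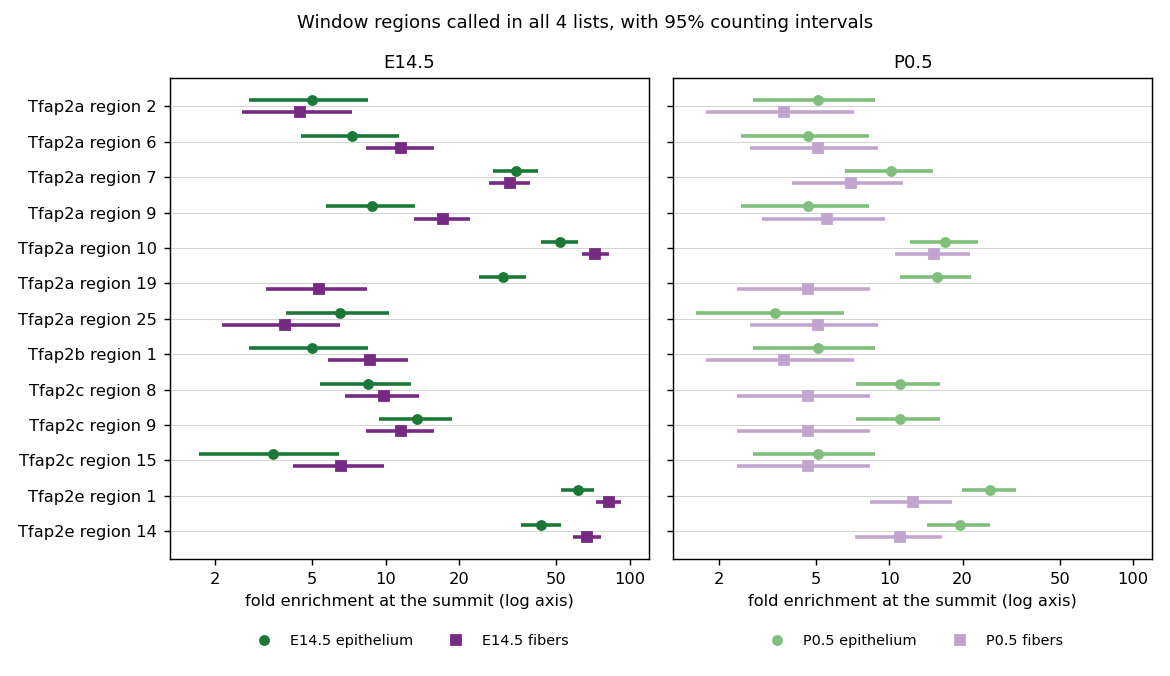
Fold enrichment at the summit of the best peak in each list, on a log axis, for the 13 AP-2 window regions called in all 4 lists, at E14.5 (left) and P0.5 (right), circles for epithelium and squares for fibers, with 95% Poisson intervals of the pooled fragments. Tfap2a region 19 has intervals that lie apart at both stages with epithelium higher, 30.3 against 5.34 and 15.7 against 4.63.

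Tfap2c (chr2:172545678-172558622, plus strand) had its best peaks at or near its 2 curated start sites. Region 9 (chr2:172550402-172551881), which holds the second start site and has its summit upstream of it, had 34 fragments (23.5 to 47.5) in epithelium and 38 (26.9 to 52.2) in fibers at E14.5, and 25 (16.2 to 36.9) in epithelium and 9 (4.12 to 17.1) in fibers at P0.5. Region 8, at the first start site, had 21, 32, 25 and 9 fragments in the same order. In fold enrichment, regions 9 and 8 were both at 11.0 in epithelium and 4.63 in fibers at P0.5, with intervals of 7.29 to 16.1 and 2.37 to 8.38 that overlapped. The best Tfap2c peak stood at 18.3%, 18.5%, 21.5% and 34.7% of the lists. The 200 bases around the region 9 summit held 1 AP-2 core. Tfap2c region 15, 22151 bp past the last curated base of the gene, was called in all 4 lists with 8, 21, 11 and 9 fragments.

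Tfap2b (chr1:19208908-19238845, plus strand) and Tfap2d (chr1:19103022-19173948, plus strand) are separated by 34959 bp. Tfap2b region 1 (chr1:19209757-19210543), 1092 bp into the gene, was called in all 4 lists, with 12 fragments (6.20 to 21.0) in epithelium and 28 (18.6 to 40.5) in fibers at E14.5, and 11 (5.49 to 19.7) in epithelium and 7 (2.81 to 14.4) in fibers at P0.5, the last at a summit away from the others. In fold enrichment, E14.5 fibers were highest at 8.60 (5.81 to 12.3), and their interval overlapped that of E14.5 epithelium, 4.98 (2.76 to 8.42). It was the highest-ranked peak of the gene in 3 lists, at 25.2% in fibers at E14.5, and at 58.5% in epithelium and 69.2% in fibers at P0.5. In E14.5 epithelium region 4, in an exon, ranked higher, at 46.8% of the list and with 14 fragments (7.65 to 23.5). Tfap2d had 2 peaks of its own, both in E14.5 fibers, one in an exon 403 bp from a start site (11 fragments, 5.49 to 19.7, at 71.6% of the list) and the intronic region 2 (16 fragments, 9.15 to 26.0, at 45.8%). No base of the Tfap2d body was in a peak of the other 3 lists. A further region between the genes, Tfap2d region 3, was called in E14.5 fibers only, with 18 fragments (10.7 to 28.4).

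Tfap2e (chr4:126716003-126736269, minus strand) had its best peak in an exon near its start site, with 17 fragments (9.90 to 27.2) in epithelium and 24 (15.4 to 35.7) in fibers at E14.5, and 10 (4.80 to 18.4) in fibers at P0.5. No peak overlapped its promoter or body in P0.5 epithelium. The highest-ranked peaks of its window belong to neighbouring genes. The promoter that Ncdn, the gene of neurochondrin, shares with AU040320 stood at 2.68%, 1.56%, 4.65% and 4.22% of the lists, and that of Psmb2, a proteasome subunit gene, at 5.09%, 2.71%, 9.10% and 5.69%. Upstream of Tfap2e, on the side of Ncdn, region 7 had 28 fragments (18.6 to 40.5) in epithelium and 46 (33.7 to 61.4) in fibers at E14.5, and 9 (4.12 to 17.1) in epithelium at P0.5, and was not called in P0.5 fibers.

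Over the windows together, 34 of 67 regions were called in a single list, which is 50.7% against 59.5% of all regions. In all 4 lists were 13, or 19.4% (Wilson interval 11.7% to 30.4%), against 10.9% of all regions. Between the tissues at E14.5, 16 of 57 window regions were called in epithelium and not in fibers, or 28.1% (18.1% to 40.8%) against 19.7% of all regions. In the other direction 9 of 57 were called in fibers and not in epithelium, or 15.8% (8.54% to 27.4%) against 40.1%. At P0.5 13 of 34 were called in epithelium and not in fibers, or 38.2% against 35.2%, and 8 of 34 in fibers and not in epithelium, or 23.5% (12.4% to 40.0%) against 39.7%. The interval for E14.5 fibers lay below the share of all regions, and the P0.5 interval held it. These Wilson intervals treat regions as independent, although the regions come from 5 genes and 29 of the 67 lie in the Tfap2a window. The E14.5 fiber list is longer than that of epithelium, and with lists of equal length the E14.5 shares were 25.0% for epithelium alone of the pair, against 20.6% of all regions, and 22.2% (11.7% to 38.1%) for fibers alone, an interval that held the 24.8% of all regions. Of the 9 E14.5 fiber regions 4 were at Tfap2a, where 5 were called in E14.5 epithelium and not in fibers.

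Between the stages, in epithelium, 28 of 54 regions were called at E14.5 and not at P0.5, or 51.9% against 49.7%, and 6 of 54 at P0.5 and not at E14.5, or 11.1% against 11.2%. In fibers, 25 of 46 were called at E14.5 and not at P0.5, or 54.3% against 62.6%, and 5 of 46 at P0.5 and not at E14.5, or 10.9% against 17.6%. At Tfap2a, 0 of 21 fiber regions were called at P0.5 and not at E14.5. With lists of equal length the share of regions called at E14.5 and not at P0.5 was 25.7% in epithelium, against 27.0% of all regions, and 39.4% in fibers, against 40.5%. In the other direction it was 7 of 35 in epithelium, against 22.4%, and 18.2% (8.61% to 34.4%) in fibers, against 33.0%, which the interval held.

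The AP-2 core itself was searched in 200 bases around the summits, on both strands, beside GGCNNNGCC, a control with the same letters. The 2 motifs can overlap in a sequence. The core was found in 13 of 55 window peaks in E14.5 epithelium, or 23.6% (14.4% to 36.3%) against 12.9% of all peaks of that list. In P0.5 epithelium it was found in 9 of 29, or 31.0% (17.3% to 49.2%) against 15.7%. In fibers it was found in 6 of 41 at E14.5, or 14.6% (6.88% to 28.4%) against 10.9%, and in 4 of 28 at P0.5, or 14.3% (5.70% to 31.5%) against 14.9%. In these 200 bases the epithelium intervals lay above the shares of their lists and the fiber intervals held them. Like those for regions, these intervals treat peaks at the same gene as independent. Over whole peaks this turned in E14.5 fibers, at 39.0% (25.7% to 54.3%) against 20.9% of the list, and in P0.5 epithelium, at 20.7% (9.85% to 38.4%) against 24.3%. It held in E14.5 epithelium, at 32.7% (21.8% to 45.9%) against 20.9%, and in P0.5 fibers, at 21.4% (10.2% to 39.5%) against 21.3%. No difference between the tissues is therefore read from the core. The control motif was found in 8 of 55 and 8 of 29 epithelium window peaks, against 14.6% and 18.4% of their lists, and in 17.1% and 21.4% of the fiber window peaks, against 12.6% and 18.2%. Among window peaks away from promoters, the core was in 6 of 36 in E14.5 epithelium, or 16.7% (7.87% to 31.9%), an interval that held the 11.1% of all such peaks of the list, and the control was in 6 of 36 against 10.6%. In P0.5 epithelium the core and the control were each in 6 of 20, and the Wilson interval of both lay above the shares of all such peaks of the list, 12.7% for the core and 12.1% for the control. In fibers the core was in 2 of 28 at E14.5 and 0 of 10 at P0.5, against 9.10% and 11.9%, and the control in 5 of 28 and 3 of 10, against 9.33% and 12.8%. The median G and C content was 58.0% and 61.0% in the epithelium window peaks at E14.5 and P0.5, against 54.0% and 56.0% of their lists, and 57.5% and 60.0% in the fiber window peaks, against 53.0% and 57.0%. With 100 bases around the summit the epithelium shares were 9.09% (3.95% to 19.6%) and 10.3% (3.58% to 26.4%), intervals that held the shares of their lists at that length, 7.12% and 8.73%. Over the merged regions, the core was in 17.9% of the window regions and 10.7% of all. The same shares were 10.4% and 13.7% for the Tead core, 23.9% and 23.1% for the Maf core, 2.99% and 6.61% for the AP-1 core, 28.4% and 35.5% for the Sox core and 14.9% (8.31% to 25.3%) and 11.7% for the control. The interval for the AP-2 core, 10.6% to 28.7%, held the share of all regions. The NRF1 core GCGCNTGCG, searched after sequences of the regions had been seen, was in 3 of 67 window regions, or 4.48% (1.53% to 12.4%), and in 1.17% of all. The table of RefSeq promoter sequences used here, which run from 250 bases before to 50 after a start site, held 7 promoters of 4 of the 5 genes, Tfap2c and some start sites of Tfap2a and Tfap2b not being among them, and 0 of the 7 held the AP-2 core, which 16.6% of 32851 mouse promoters held.

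Genes that work with AP-2 proteins had promoter peaks in all 4 groups. All 7 of the partners listed, the coactivators Cited1, Cited2, Cited4, Crebbp and Ep300 and the repressors Kctd1 and Kctd15, had a promoter peak in all 4 lists, as 70.3%, 71.2%, 67.0% and 64.6% of all genes had in the lists in order. Their highest-ranked peaks were nearer the top in fibers at both stages for 6 of the 7, a direction that 47.5% of 14132 genes with a peak in every list took, and Cited1 was nearer the top in epithelium (9.01% against 12.9% at E14.5 and 22.5% against 48.9% at P0.5). These directions are of places within lists, and fold enrichment was not compared for the partners. The median place of the partners was 6.12%, 4.13%, 11.8% and 8.49% in the same order, and that of the targets below 12.5%, 13.2%, 14.6% and 15.7%, beside the medians of all genes given above. Of 8 genes known as AP-2 targets, 7, 6, 7 and 6 had a promoter peak in the 4 lists in order, beside the shares of all genes given above. Of the targets, 3 were nearer the top in epithelium at both stages, a direction that 17.9% of the 14132 genes took, and 2 were nearer the top in fibers, which 47.5% were. Those of epithelium included Cdh1, the gene of E-cadherin (9.01% against 19.5% at E14.5 and 14.6% against 34.7% at P0.5), and Kit, a receptor tyrosine kinase (9.01% against 11.1% at E14.5). Those of fibers were Cdkn1a, a cell cycle inhibitor (13.0% in epithelium against 12.3% in fibers at E14.5 and 23.6% against 15.7% at P0.5), and Esr1, the gene of estrogen receptor alpha (43.5% against 42.8% and 52.3% against 21.4%). Esr1 had a promoter peak in both epithelium lists and in neither fiber list. At P0.5 these places stand for folds of 10.2 in epithelium and 6.49 in fibers for Cdkn1a, and 5.52 and 5.56 for Esr1. By fold, Cdkn1a was thus higher in epithelium at P0.5 and Esr1 nearly equal. Krt14 had no peak over its promoter or body at P0.5. Among the lens epithelium regulators, 8 of 8 had a promoter peak in all 4 lists, as had 5 of 5 fiber regulators. By place, 2 of the 8 epithelium regulators were nearer the top in epithelium at both stages and 3 in fibers. Of the 5 fiber regulators, 0 were nearer the top in epithelium at both stages and 3 in fibers.

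The tissue labels were checked by the promoter peaks of marker genes and by the place of their best peak over the promoter or body. By place, all 7 fiber markers, among them Mip, Bfsp1 and Crybb1, were nearer the top in fibers at both stages, with 7, 7, 6 and 7 promoter peaks. That direction was taken by 47.5% of 14132 genes. The 4 epithelium markers were split. Foxe3 and Cdh1 were nearer the top in epithelium at both stages, a direction that 17.9% took. Pax6 and Pdgfra were nearer the top in fibers at both stages (Pax6 at 3.73% in epithelium against 0.479% in fibers at E14.5, and 6.64% against 6.31% at P0.5). Of the markers of surface ectoderm and cornea, tissues in which AP-2 genes are also active, 0 of 4 (Krt5, Krt14, Krt12 and Trp63) had a promoter peak in any list. Retina markers had promoter peaks at 4, 4, 3 and 0 of 4 genes, periocular mesenchyme markers at 4 of 4 in every list, endothelium markers at 3, 3, 2 and 2 of 4 and blood markers at 1, 1, 0 and 1 of 3. Beside these counts stand shares of 70.3%, 71.2%, 67.0% and 64.6% over all genes, in the same order of lists. Most genes thus have such a peak, and the presence of these cell types is not read from counts of so few genes. A promoter peak shows open chromatin and not expression, and the part of these cell types in the AP-2 peaks was not tested.

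The genes whose best promoter or body peak followed the 4 lists most like Tfap2a were Zmynd19, Eif2ak1 and Zfp598, at distances of 0.0737, 0.119 and 0.120 in log10 percent of list over 14132 genes. Nearest to Tfap2b were Galnt15, Ccdc141 and Mlph (0.0436 to 0.0757), and nearest to Tfap2c were Rps6ka6, Gm10277 and Acss1 (0.0309 to 0.0541). The likeness rests on 4 values that share a list each with every other gene. Tfap2d and Tfap2e lacked a peak of their own in at least 1 list and were not compared in this way.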

How the data were processed

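Per the labels, 8 ATAC-seq libraries of CD1 lens were made, and the submitters' processing notes name Trim Galore 0.4.1, Bowtie2 2.3.3.1, SAMtools 1.2, Picard 2.1.1 and MACS2 2.1 with mm10. The authors trimmed and aligned the reads, removed mitochondrial and duplicate reads, combined both libraries of each group and ran peak calling on fragments at a q value of 0.05. The deposited lists give, for each peak, a score, the ratio of summit pileup to background (fold enrichment), −log10 p, −log10 q and the summit offset. The authors' score was not used. The −log10 p values ordered peaks for equal list lengths, and −log10 q served a stricter threshold of 0.001. The depth of the libraries is not in the lists.

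Each list was mapped to its group by stage and tissue, with 0 columns unassigned. Fold enrichment was ranked within a list, and equal values, which nearly all peaks share with another, took the same rank. Fragments at a summit are, as inferred, the fold enrichment divided by the step of its list, less the 1 that MACS2 adds. Regions were merged at 10 bp. Start sites came from 45756 curated RefSeq transcripts of GRCm38, antisense genes from GENCODE and sequence from the GRCm38 genome. Promoter sequences are credited to RefSeq. Shares carry Wilson intervals, which treat regions or peaks as independent and so leave out likeness within a gene. Places of the genes' best peaks cover peaks over the promoter or body only. Python 3.11.15, pandas 2.3.3, numpy 2.4.6, scipy 1.17.1, pysam 0.24.0, samtools 1.23.1 and matplotlib 3.10.9 were used, and the steps were tested on simulated data. Ranks by p value are the same as by fold enrichment by construction. The read counts that a test between libraries needs were not analysed here, and 1 gene of the lists and some sequences are not reported here.

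The genes, the lists, the motifs and the comparisons were chosen with earlier results of these data known, and the NRF1 motif, the comparison of folds and their counting intervals after these values were seen. Named genes were the 5 AP-2 genes, genes in their windows, the 3 genes most like each in place in the lists, and genes of lists of AP-2 partners, AP-2 targets, lens regulators and cell type markers. Alternatives were a stricter q value, equal list lengths, other flanks, promoters, merge distances, overlaps, motif windows and motif spacing.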

Additional observations from a re-analysis of the deposited data

Results flagged for a closer look

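By place in the list, Tfap2a region 25, 12418 bp past the last curated base of the gene, went opposite ways in the 2 tissues between the stages, and this difference was not tested. Its E14.5 fold over its P0.5 fold was 1.92 in epithelium, beside a median of 1.89 over regions called in all 4 lists. In fibers it was 0.756, beside a median of 3.97. In epithelium the place of region 25 moved from 40.6% at E14.5 to 96.5% at P0.5, 2.38 times farther from the top. In fibers it moved from 64.1% to 26.4%, 0.412 times the E14.5 percent. The 4 peaks had 16, 12, 7 and 10 fragments at the summit at E14.5 (epithelium, then fibers) and P0.5 (epithelium, then fibers), with counting intervals of 9.15 to 26.0, 6.20 to 21.0, 2.81 to 14.4 and 4.80 to 18.4, which all overlap.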

How the results depend on the processing

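No paired analysis was possible because the lists are pooled and their columns carry no replicate, and for the same reason no library could be left out. Of 16 counts of AP-2 genes with a promoter peak, 16 stayed within 1.5 times (5 to 4 in E14.5 fibers with equal list lengths, and 4 to 3 in P0.5 fibers at the stricter q value and with 1 kb promoters) under a q value under 0.001, equal list lengths, 1 kb promoters and predicted transcripts. With equal list lengths the windows held 31 peaks in E14.5 epithelium in place of 55 and 27 in E14.5 fibers in place of 41, and regions called at E14.5 and not at P0.5 were 25.7% in epithelium and 39.4% in fibers. At a q value under 0.001 the windows held 18 peaks in P0.5 fibers in place of 28. The other 17 of 20 peak counts stayed within 1.5 times, and 38 of 40 shares for pairs stayed within their interval. The AP-2 core was found in 9.09% of E14.5 epithelium, 10.3% of P0.5 epithelium and 3.57% of P0.5 fiber window peaks within 100 bases of the summit. With a spacer of 4 bases it was in 9.09% and 13.8% of E14.5 and P0.5 epithelium window peaks, against 11.5% and 14.3% of their lists. Over the whole peak it was in 39.0% of E14.5 fiber window peaks, against 20.9% of the list. There, P0.5 epithelium had 20.7% against 24.3% and E14.5 epithelium 32.7% against 20.9%. In all, 10 of 16 such shares stayed within their interval. Regions nearer the top in fibers at both stages fell from 1 to 0 by fold enrichment and to 0 by counting intervals, both chosen after the values were seen, and the 1 region nearer the top in epithelium was called under both. Places of the best window peak stayed within 1.5 times in 27 of 34 values, ranks by p value left out as identical by construction. Places with no peak left under an alternative are not among the 34. At a q value under 0.001 the Tfap2a place in P0.5 fibers moved from 2.35% to 4.80%, that of Tfap2c from 34.7% to 71.0% and that of the Tfap2e window from 4.22% to 8.64%. The other 4 moved with the promoter or body in place of the window, for Tfap2d and Tfap2e. Shorter lists and fewer bases searched lower such counts by construction, and the cause of the others was not tested. The median peak of P0.5 fibers rests on the fewest fragments, 8, and the depth of the libraries was not analysed here.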
